A study of Mus musculus with 24 samples.

Results

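The genes described here are the protein components of the cytosolic ribosome in dispersed mouse islet cells. They were taken from the gene table by symbol alone: protein-coding genes whose names begin with Rpl or Rps and a digit, together with Rplp0, Rplp1 and Rplp2, without the S6 kinases (Rps6k). This gave 93 of 41549 genes. Of these, 76 were core ribosomal proteins, 30 of the small and 46 of the large subunit. The other members were 8 paralogs, 7 copies with "-ps" in their names, and Rps19bp1 and Rps23rg1, which carry a ribosomal protein's name without being part of the ribosome. Symbols such as Rpsa, Fau and Rack1 lie outside the pattern although their products belong to the ribosome, and their values are given separately below.

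Islets came from male and female wild type C57BL/6NRj mice of 12 to 14 weeks. The dispersed cells were transfected with 50 pmol of an antisense oligonucleotide (ASO), either a control (Ctr) or one that binds the 5'tRF Glu(CTC), a fragment of the 5' end of tRNA Glu (αGlu). They then spent 48 h in medium with 1% FBS and either 0.75% fatty-acid free BSA or 0.5 mM palmitate (PA), a saturated fatty acid. Either ASO was combined with BSA or PA, and each of the 4 groups so formed held 6 libraries, 3 from each of 2 batches. The labels do not say what a batch is or which libraries came from the same mice. The study states that the groups of each replicate were made from cells of the same animal, so the comparisons here treat as unpaired libraries that may belong together. Total exon counts ran from 18214719 to 35001979 per library (median 26701201.5). The cells of an islet stayed mixed in every library, so that fewer cells of a type and less RNA per cell cannot be told apart.

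A ribosome is built from ribosomal RNA and one copy of nearly every ribosomal protein. The small subunit reads the mRNA, and the large subunit joins the amino acids. Ribosomal protein mRNAs are among the most abundant in most cells, and beta cells translate heavily because insulin is their main product. Most vertebrate ribosomal protein mRNAs begin with a C followed by a run of pyrimidines, the terminal oligopyrimidine (TOP) tract, through which LARP1 and mTOR signalling control their translation. Processed copies of these genes are scattered over mammalian genomes, so that reads from a ribosomal protein mRNA can match several places.

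The sequence around the annotated start is shown for members whose values are described below, because the rule that chose them used only their names, and for Rps18 and Rpl15 as examples of longer pyrimidine runs. RefSeq promoters on GRCm38.p6 matched 66 of the 93 members, of which 56 were core genes. Each line gives 15 bases before and 15 bases from the annotated start onwards, 5' to 3', and capitals mark the C at the start with the pyrimidines that follow it.
Rps6, chr4:86857353-86857382, minus strand: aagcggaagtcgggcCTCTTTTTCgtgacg
Rps18, chr17:33955651-33955680, minus strand: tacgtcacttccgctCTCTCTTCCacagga
Rpl15, chr14:18270972-18271001, minus strand: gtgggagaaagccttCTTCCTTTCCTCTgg
Rps27, chr3:90213634-90213663, minus strand: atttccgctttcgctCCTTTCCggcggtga
Rps27rt, chr9:114982725-114982754, minus strand: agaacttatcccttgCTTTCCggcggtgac
Rpl4, chr9:64173372-64173401, plus strand: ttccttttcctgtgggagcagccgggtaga
Rpl10, chrX:74270801-74270830, plus strand: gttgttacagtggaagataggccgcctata
Rpl7l1, chr17:46782642-46782671, minus strand: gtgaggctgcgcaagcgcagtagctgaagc
Rpl4, Rpl10 and Rpl7l1 are shown as members with no such run at the annotated start.

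A C at the annotated start followed by at least 4 more pyrimidines was found in 13 of the 56 core genes (23.2%) and in 3.0% of the 27025 genes with a promoter in the table. Within 10 bases of the start on either side, such a run was present in 34 of 56 core genes (60.7%), against 34.4% of all genes. The ETS-type motif CCGGAAG, searched on both strands over 250 bases before and 50 after the start, occurred in 23 of 56 core genes (41.1%) and in 9.9% of all genes. AAGATGGC, a YY1-type motif, was found in 5 core genes (8.9%, against 3.2%), and the TATA box TATAAA in 6 (10.7%, against 15.7%). The letters can overlap: the reverse complement of CCGGAAG holds CTTCC, which is also a pyrimidine run, and CCGGAAG can share AAG with AAGATGGC. These matches describe annotated starts, which can lie some bases from the start a cell uses.

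Coding sequences on GRCm38 show how closely some members resemble one another, which matters for how reads were divided between them. Each pair of lines is the same stretch of coding sequence, and capitals mark bases that differ within a pair. The stretch shown is the 30 bases of a pair with the most differences, so it is less alike than the whole coding sequence where the pair differs. Rpl10-ps3, Rps27rt and Rpl9-ps6 are copies of their parent genes, and Rps27l and Rpl36al are diverged paralogs.
Rpl10, chrX:74271660-74271689, plus strand: ttaccggtattgtaagaacaagccataccc
Rpl10-ps3, chr9:50344889-50344918, minus strand: ttaccggtattgtaagaacaagccataccc
Rps27, chr3:90213272-90213301, minus strand: ctcgcaaaggatctccttcatccctctcca
Rps27rt, chr9:114982672-114982701, minus strand: ctcgcaaaggatctccttcatccctctcca
Rpl9, chr5:65389581-65389610, minus strand: ggcttccGatacaagatgcggtctgtgtac
Rpl9-ps6, chr19:32466264-32466293, minus strand: ggcttccAatacaagatgcggtctgtgtac
Rps27, the same 30 bases against Rps27l: ctCgcAaAGgatctCCtTcaTccCtcTCCA
Rps27l, chr9:66946831-66946860, plus strand: ctGgcTaGAgatctGTtAcaCccTtcCTTG
Rpl36a, chrX:134586078-134586107, plus strand: gtGaacgtGccTaaaacccgCCggacAttc
Rpl36al, chr12:69183104-69183133, minus strand: gtCaacgtAccAaaaacccgAAggacTttc

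Over their whole coding sequence, Rpl10 and Rpl10-ps3 were identical at all 642 bases, and Rps27 and Rps27rt at all 252. Rpl9 and Rpl9-ps6 differed at 1 of 576 bases. Rps27l differed from Rps27 at 60 of 252 aligned bases, Rpl36al from Rpl36a at 39 of 318, and Rpl22l1 from Rpl22 at 109 of 366. Of the 75-base stretches of their annotated transcripts, Rpl10-ps3 shared 96% with Rpl10, Rps27rt 90.3% with Rps27 and Rpl9-ps6 84.8% with Rpl9, whereas 77 of the 93 members shared over 5% of such stretches with some other gene. How reads with several equally good places were counted is not given in the sources used here, so that values of a copy and its parent are uncertain where their sequences are the same.

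Of the 93 members, 85 had enough counts to be tested: all 76 core genes, 5 paralogs, 3 copies and Rps19bp1. The 8 below the filter were Rps23rg1, which reached 14 counts in its highest library, Rpl3l (8), Rps18-ps6 (7), Rpl36a-ps1 (6), Rpl39l (4), Rpl10l (2), Rpl9-ps1 (1) and Rpl36-ps4 (0). Rpl3l is known from heart and skeletal muscle, and Rpl10l and Rpl39l from the testis.

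Some libraries stood apart. In the Ctr BSA library S1, the scaling factor was 0.853, below the next lowest of 0.939, and against the other libraries of its group and batch its shortest genes were higher than its longest by 0.40 on the log2 scale. In the Ctr PA library S23 the same difference between short and long genes was -0.40, and the tested members differed by a median of -0.50 from the other libraries of its group and batch. In the remaining libraries the difference between short and long genes ran from -0.21 to 0.28. The members are short, with a median at percentile 12.4 of exon length among tested genes. Because S1 is a BSA library and S23 a PA library of the Ctr cells, results that rest on them are given with and without both, an alternative chosen after the data were seen. By the members' own median difference, S1 stood at only 0.14, whereas the Ctr PA libraries S15 and S7 stood at 0.40 and 0.32. That alternative thus leaves out a Ctr PA library low in the members and keeps both of these high ones.

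Reads on the 93 members made up 1.41% to 2.84% of all exon reads. The share was 1.55%, 1.89% and 2.39% (lowest, median and highest library) in Ctr BSA and 1.41%, 2.24% and 2.84% in Ctr PA. It was 1.64%, 1.84% and 2.28% in αGlu BSA and 1.95%, 2.17% and 2.61% in αGlu PA. The ranges of BSA and PA overlapped in both ASO groups, while within batch 2 of the αGlu cells the PA libraries, at 1.95% to 2.12%, all lay above the BSA libraries, at 1.64% to 1.68%. All 12 libraries of batch 1 lay between 1.99% and 2.84%, and those of batch 2 between 1.41% and 2.15%.

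**Figure D1:**
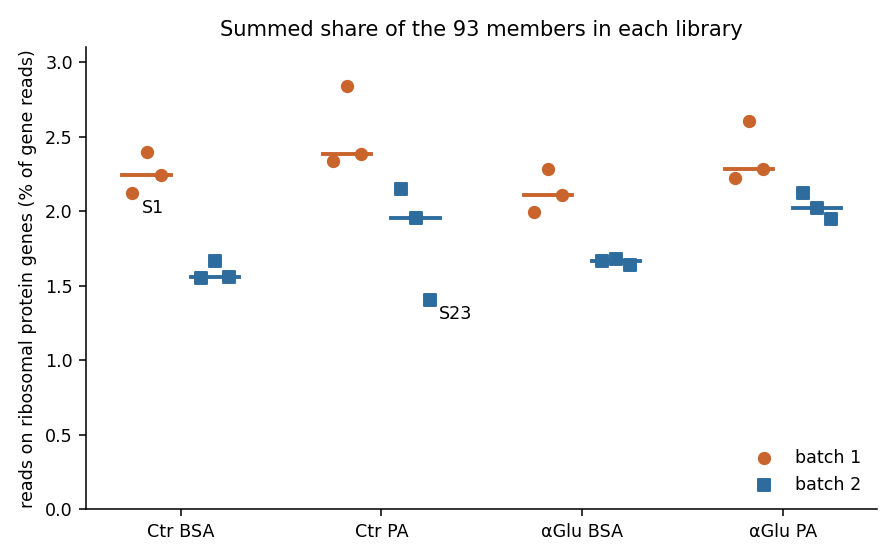
Percent of each library's exon reads that fell on the 93 members (vertical axis), by group and batch, with 1 point for each library. Batch 2 lay lower, from 1.41% to 2.15% against 1.99% to 2.84% in batch 1, and the lowest point is the Ctr PA library S23.

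Levels between genes are given as TPM, which divides by gene length, as the median over all 24 libraries. The highest were Rpl10-ps3 at 2434 TPM, the small-subunit protein Rps3a1 at 1548, the stalk protein Rplp0 at 1371, its partner Rplp1 at 1346 and Rpl4 at 1249. Across libraries these 5 overlapped widely except for Rpl10-ps3, whose lowest library (1861 TPM) lay above the highest of Rplp0 (1838), Rplp1 (1784) and Rpl4 (1614) but not of Rps3a1 (2075). The level of Rpl10-ps3 is uncertain, because its coding sequence is identical to that of Rpl10 and reads on it cannot be assigned to either locus. Among core genes the lowest were Rps15a at 49.3 TPM, Rpl22 at 94.8 and Rpl35a at 98.8. Although the ribosome holds about equal amounts of its proteins, TPM of the core genes differed 31.4-fold from highest to lowest. Their median was 349 TPM, with 352 for the small and 348 for the large subunit, and 72 of 76 lay above 111.5 TPM, the 95th percentile of all tested genes. TPM depends on the annotated length, and the annotated exons of Rps15a span 6270 bases, most of them outside its short coding sequence. Paralogs and copies were mostly lower, with Rpl36al at 207 TPM, Rps27l at 181, Rps27rt at 79.97, Rpl7l1 at 39.1, Rpl22l1 at 35.99, Rpl9-ps6 at 16.4 and Rps18-ps5 at 1.32. Rps19bp1, a nucleolar partner of RPS19, stood at 19.9 TPM.

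**Figure D2:**
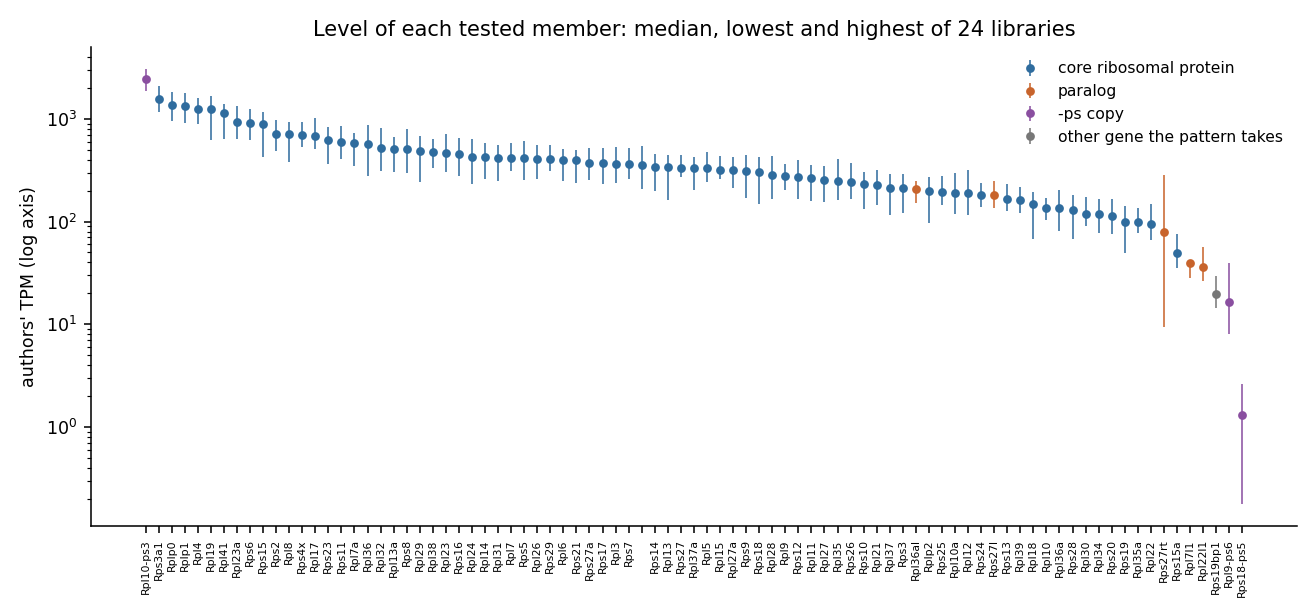
Median TPM over 24 libraries on a log axis for the tested members, ordered from high to low and coloured by class, with lines to the lowest and highest library. Rpl10-ps3 (2434 TPM) stands at the top, core genes run from 1548 down to 49.3, and most paralogs and copies lie at the low end. The place of Rpl10-ps3 is uncertain, because it shares its coding sequence with Rpl10.

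The first question was what palmitate did to these mRNAs in cells with the control ASO. In Ctr cells 9 of 85 tested members rose and none fell. They were, by p, Rpl4, Rpl10-ps3, Rpl3, Rps24, Rpl5, Rps6, Rpl22, Rpl30 and Rps3a1. By edgeR's quasi-likelihood test with Benjamini-Hochberg adjustment this was 10.6% of the members, while 15.5% of all 15916 genes tested were raised and 14.5% lowered. With all libraries the share of members raised was thus below the background, but this comparison turned around without S23 (36.5% of members against 15.996% of all genes) and without S1 and S23 together (62.4% against 17.99%). The median log2 fold change of the members was 0.13, against 0.01 over all genes, and 78 of the 85 lay above 0, as did 51.1% of all genes. At an unadjusted p below 0.05 there were 18 members, and 40.6% of all genes passed this. In these counts 3 of 30 small-subunit and 5 of 46 large-subunit core genes rose.

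Rpl4, a large-subunit protein near the exit tunnel (ENSMUSG00000032399, chr9:64173375-64178666), had 637, 777 and 915 CPM in Ctr BSA and 733, 963 and 1147 in Ctr PA. Its libraries overlapped between the groups, and it rose by 0.29 on the log2 scale (SE 0.073, adjusted p = 0.0043 by edgeR's quasi-likelihood test). Rpl3, which reaches close to the peptidyl transferase centre (ENSMUSG00000060036, chr15:80077791-80091868), had 273, 347 and 428 CPM in BSA and 312, 431 and 598 in PA. It rose by 0.35 (SE 0.092, adjusted p = 0.0056 by edgeR), the highest change of a core member in this comparison. Rpl10-ps3 had 529, 592 and 713 CPM in BSA and 596, 714 and 830 in PA, and rose by 0.25 (SE 0.064, adjusted p = 0.0045 by edgeR). All of these overlapped between BSA and PA over the whole group.

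Rps24, a small-subunit protein whose human gene is among those mutated in Diamond-Blackfan anaemia, had 309, 363 and 453 CPM in Ctr BSA and 363, 436 and 531 in Ctr PA, and rose by 0.23 (SE 0.072, adjusted p = 0.016 by edgeR). Rpl5, which carries 5S rRNA into the ribosome with Rpl11 and can bind MDM2, had 342, 443 and 555 CPM in BSA and 399, 522 and 666 in PA, with a change of 0.22 (SE 0.070, adjusted p = 0.022 by edgeR). Rps6, the substrate of the S6 kinases, had 378, 465 and 565 CPM in BSA and 390, 572 and 697 in PA, with a change of 0.24 (SE 0.078, adjusted p = 0.023 by edgeR). Rpl22, Rpl30 and Rps3a1 passed the same test at 0.22, 0.21 and 0.17 (adjusted p = 0.031, 0.031 and 0.049 by edgeR). None of these changes reached a fold of 1.5, and each overlapped between BSA and PA over both batches.

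In αGlu cells 32 of 85 tested members rose with palmitate and none fell. That was 37.6% of the members, against 14.4% of all genes raised and 14.2% lowered by edgeR's quasi-likelihood test. The count depended on the fit and ran from 0 to 64 members raised over the alternatives. It was lower with a length trend removed from each library and with no batch term, as given in the last section. By subunit, 15 of 30 small-subunit and 16 of 46 large-subunit core genes rose, and the remaining call was Rpl10-ps3. The members' median log2 fold change was 0.24, against 0.01 over all genes; 84 of 85 lay above 0 (50.9% of all genes), and 58 passed an unadjusted p below 0.05 (39.1% of all genes). All 9 members raised in Ctr cells were among the 32, of which they made up 28.1%. The groups of these 2 responses share no library, but all came from the same batches and 1 fit.

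Rpl3 again changed most among core members, with 305, 322 and 424 CPM in αGlu BSA and 419, 440 and 563 in αGlu PA, a rise of 0.42 (SE 0.092, adjusted p = 0.0013 by edgeR). The highest BSA library and the lowest PA library overlapped narrowly. Rps24 had 332, 354 and 402 CPM in BSA and 406, 434 and 466 in PA, and rose by 0.28 (SE 0.072, adjusted p = 0.0044 by edgeR). Its 6 PA libraries all lay above its 6 BSA libraries. Rpl10-ps3 had 564, 592 and 614 CPM in BSA and 676, 721 and 744 in PA, with no overlap, and rose by 0.27 (SE 0.064, adjusted p = 0.0022 by edgeR). Rps6 had 420, 433 and 533 CPM in BSA and 497, 546 and 610 in PA, with overlap, and rose by 0.28 (SE 0.078, adjusted p = 0.0095 by edgeR). Rpl30 and Rpl22 rose by 0.27 and 0.28 (adjusted p = 0.0075 and 0.0092 by edgeR), and Rpl4 by 0.26 (adjusted p = 0.010). Other members that passed included the decoding-site protein Rps23 (0.26), Rps2 (0.28), Rps27a, which is made as a fusion with ubiquitin (0.25), and Rps28 (0.37, SE 0.14, adjusted p = 0.046 by edgeR).

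**Figure D3:**
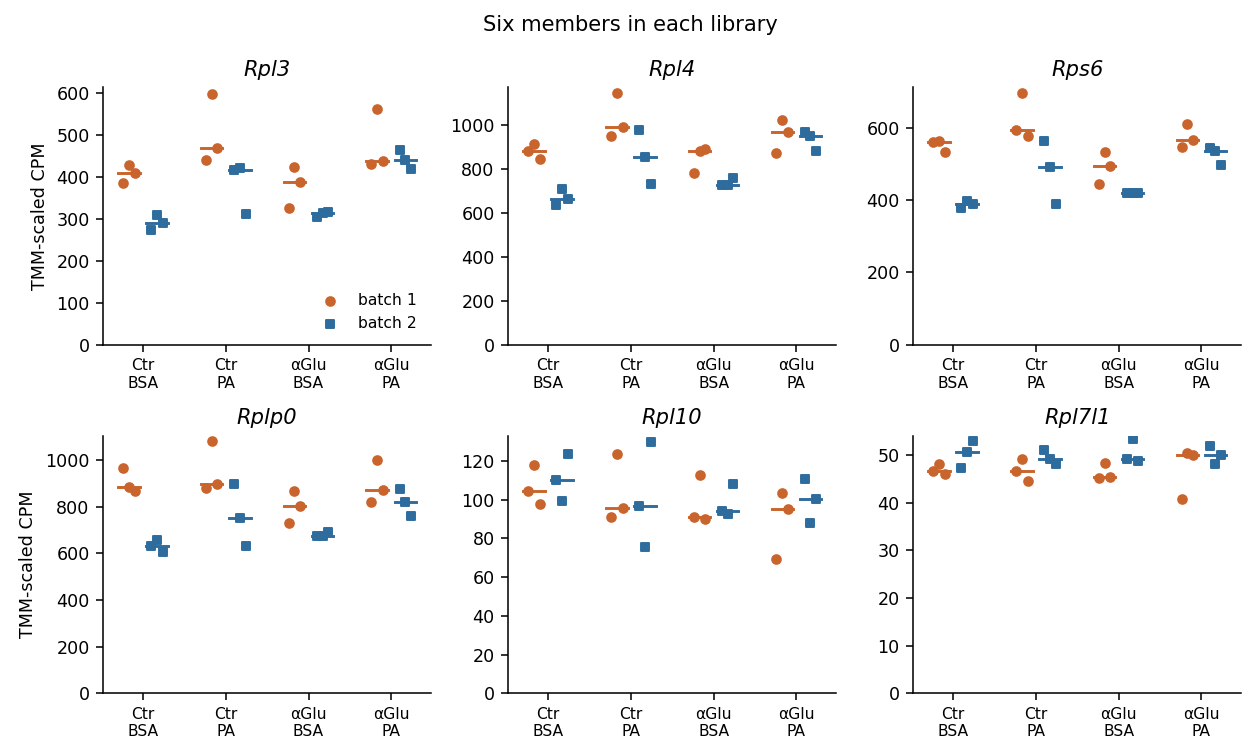
CPM in every library for 6 members, by group and batch, each panel with its own axis. For Rpl3, Rpl4, Rps6 and Rplp0 the median was higher in PA than in BSA in both batches and with both ASOs, whereas Rpl10 and Rpl7l1 overlapped between BSA and PA in both ASO groups.

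The stalk proteins recruit the translation factors that split GTP. Rplp0, which anchors the stalk, had 604, 764 and 965 CPM in Ctr BSA and 631, 887 and 1080 in Ctr PA, with a difference of 0.16 that did not pass (adjusted p = 0.14 by edgeR). In αGlu cells it had 675, 711 and 869 CPM in BSA and 761, 848 and 1000 in PA, and it passed just inside the threshold at 0.22 (SE 0.082, adjusted p = 0.049 by edgeR). Its call was lost in 26 of 37 alternatives. Rplp1 differed by 0.12 in Ctr and 0.25 in αGlu cells (adjusted p = 0.43 and 0.085 by edgeR), and Rplp2 by 0.13 and 0.24 (adjusted p = 0.43 and 0.12). Rps4x, an X-linked small-subunit protein, differed by 0.14 and 0.16 (adjusted p = 0.15 and 0.11 by edgeR). The stalk proteins and Rps4x therefore had positive values in both cell groups, of which 1 passed.

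A few members had values near 0. Rpl10, which joins the large subunit late and is needed for it to bind the small one, had 97.6, 107 and 124 CPM in Ctr BSA and 75.8, 96.2 and 130 in Ctr PA. In αGlu cells it had 90.2, 93.5 and 113 CPM in BSA and 69.4, 97.7 and 111 in PA. The PA response was -0.09 (SE 0.11, adjusted p = 0.58 by edgeR) in Ctr and -0.06 (SE 0.11, adjusted p = 0.75) in αGlu cells, while its copy Rpl10-ps3 rose in both. Added together, Rpl10 and Rpl10-ps3 had medians of 703 and 807 CPM in BSA and PA of the Ctr cells and 684 and 812 CPM in those of the αGlu cells, and the copy held 81.02% to 90.7% of the pair's reads. With identical coding sequences, which of the 2 loci these reads came from cannot be told apart. Rpl7l1, a paralog of Rpl7 found in pre-ribosomes, had medians of 47.8 and 48.7 CPM in BSA and PA of the Ctr cells and 48.6 and 50.02 CPM in those of the αGlu cells, and its PA responses were -0.01 (SE 0.050) and 0.00 (SE 0.050).

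Among the other paralogs and copies, none passed in either PA response. Rpl36al differed by 0.14 and 0.21 in Ctr and αGlu cells (adjusted p = 0.23 and 0.058 by edgeR), Rpl22l1 by 0.20 and 0.13, and Rps27l, known as a p53 target, by 0.01 and 0.07. Rps27rt varied most. It had 4.41, 8.04 and 50.8 CPM in Ctr BSA, the highest being S1, and 1.40, 10.7 and 11.7 in Ctr PA, the lowest being S23. Its response in Ctr cells was -0.70 (SE 0.43, 95% interval -1.58 to 0.18) and in αGlu cells 0.45 (SE 0.42). Rps27rt held 0.974% to 24.2% of the reads on it and Rps27 together, with which it shares its whole coding sequence. Rpl9-ps6 differed by -0.32 and 0.26 and Rps18-ps5 by 0.06 and 0.40, at medians of 4.08 to 5.23 and 0.237 to 0.320 CPM.

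**Figure D4:**
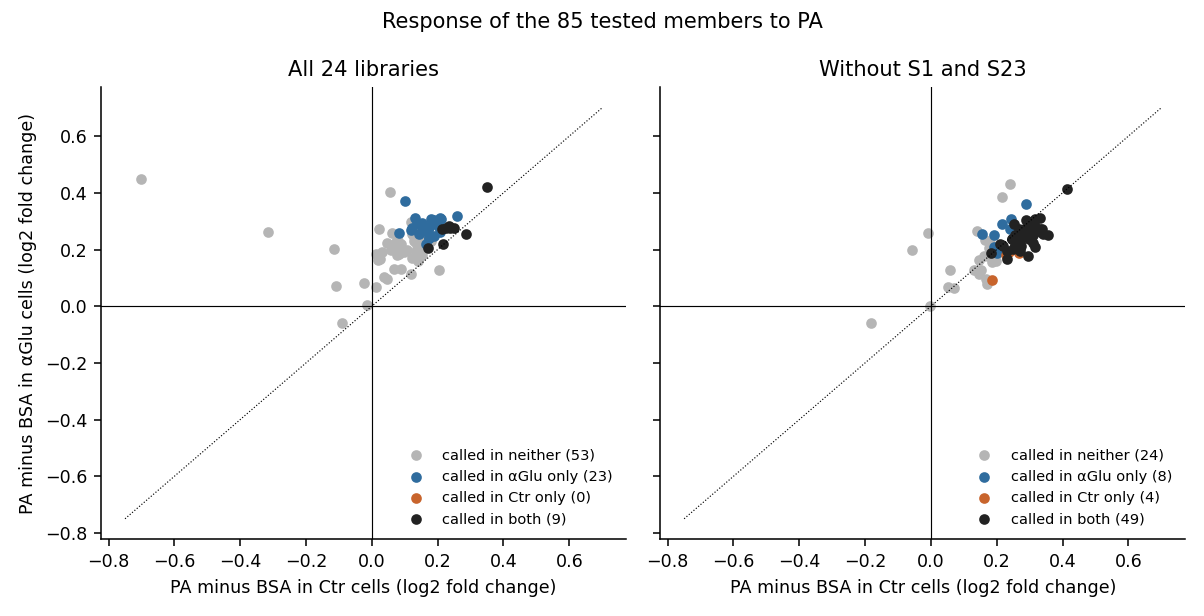
Log2 fold change of PA over BSA for the tested members in Ctr cells (horizontal axis) and αGlu cells (vertical axis), for all 24 libraries (left) and without S1 and S23 (right), coloured by the responses in which a member passed. With all libraries 9 members passed in both responses and none in Ctr cells alone; without S1 and S23, 49 passed in both.

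How many members passed depended on single libraries. Without S1 and S23 together, 53 members rose in Ctr cells and 57 in αGlu cells, 49 of them in both, with medians of 0.25 and 0.23, while 17.99% and 18.1% of all genes rose in that fit. The 9 members called in Ctr cells with all libraries were among the 53. The count in Ctr cells was 31 without S23, 15 without S1, 4 without S13 or S15 and 3 without S7, and the share of all genes raised in these fits ran from 13.7% to 15.996%. Rpl4, Rpl10-ps3 and Rpl3 passed in all 24 fits that left out 1 library, while Rps24 lost its call without S7 (adjusted p = 0.051 by edgeR), Rpl5 without S7, S13 or S15, Rps6 without S7, S13, S15 or S21, and Rpl22 without S7, S13, S15 or S17. The count in αGlu cells was 52 without S23, 21 without S8, S10 or S24, 15 without S20, 14 without S2 and 13 without S16, with 12.2% to 16.5% of all genes raised. There, Rpl3, Rpl10-ps3, Rps24, Rpl30, Rpl22 and Rps6 passed in all 24 such fits. Within batch 1 alone, 0 members passed by edgeR in either response (medians 0.03 and 0.16), while 6.63% and 5.09% of all genes were raised at that adjusted threshold. At an unadjusted p below 0.05 there were 3 and 7 members. The share of all genes below that unadjusted p within batch 1 is not given here, so these counts have no background beside them. Within batch 2 alone, 10 and 15 of 84 tested members rose, with medians of 0.21 and 0.31, against 5.91% and 5.87% of all genes. None of these alternatives lowered a member in a PA response.

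Within batches the ranges can be read without the offset between them. In batch 2 of the αGlu cells, all 3 PA libraries lay above all 3 BSA libraries for 76 of the 85 members, 72 of them core genes, and for 18.9% of all genes. In batch 1 of the αGlu cells this held for 14 members (19.6% of all genes), in batch 1 of the Ctr cells for 3 (15.6%), and in batch 2 of the Ctr cells, where S23 is, for 14 (14%). The opposite order, PA below BSA, was found for 1 member in each batch of the Ctr cells (12.9% and 14% of all genes) and for none in the αGlu cells (16.1% in batch 1 and 19% in batch 2). Rps6 in batch 2 of the αGlu cells had 420 to 421 CPM in BSA and 497 to 544 in PA. Rpl3 there had 305 to 316 CPM in BSA and 419 to 465 in PA. In batch 1 of the αGlu cells, Rpl3 had 327, 388 and 424 CPM in BSA and 432, 439 and 563 in PA, which again did not overlap.

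The next question was whether inhibiting the tRNA fragment changed these mRNAs. By edgeR's quasi-likelihood test no member passed between αGlu and Ctr cells in BSA, where 0% of all 15916 genes passed in either direction. At an unadjusted p below 0.05 there was 1 member, against 2.90% of all genes. DESeq2 called 0 members, but the share of all genes that it called is not given for this or the later comparisons. The median difference was -0.06, and 84 of 85 members lay below 0, against 50.4% of all genes above 0. The 3 members of smallest p were Rps19bp1 (-0.24, SE 0.10, unadjusted p = 0.028 by edgeR), Rpl35 (-0.20) and Rpl35a (-0.15), with adjusted p = 1.00 by edgeR. Rps19bp1 had 6.86, 7.93 and 11.2 CPM in Ctr BSA and 6.17, 6.91 and 8.77 in αGlu BSA, and the groups overlapped.

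The medians of the batches had opposite signs for this comparison, but whether the ASO difference changed with the batch was not tested. The members move together across libraries, so the counts below are not separate observations and rest on 3 against 3 libraries. In batch 1 the median was -0.21, and the 3 αGlu BSA libraries lay below all 3 Ctr BSA libraries for 33 of 85 members (3.91% of all genes) and above for 0 (3.79%). In batch 2 the median was 0.08, and they lay above for 18 members (3.49% of all genes) and below for 2 (3.21%). Rps24 had 393, 446 and 453 CPM in Ctr BSA and 349, 359 and 402 in αGlu BSA of batch 1, and 309, 320 and 333 against 332, 339 and 359 in batch 2. Without S1 and S23 the median over both batches was -0.02.

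In PA, αGlu cells differed from Ctr cells by a median of 0.03, with 69 of 85 members above 0 (48.4% of all genes). No member passed by edgeR's quasi-likelihood test or DESeq2, and 0 had an unadjusted p below 0.05, against 3.38% of all genes. None of all 15916 genes passed in this comparison by edgeR (0%). The 3 members of smallest p were Rps27rt (0.66, 95% interval -0.22 to 1.53), Rps27 (-0.10) and Rpl8 (0.12). In batch 1 the αGlu PA libraries lay above all Ctr PA libraries for 1 member (3.24% of all genes) and below for 0 (3.77%), and in batch 2 for 0 in either direction (3.44% above and 4.66% below). By batch, the medians were -0.10 and 0.16, and without S1 and S23 the median was -0.04.

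The difference between the PA responses, which is the test of whether αGlu changed the response, was positive for 82 of 85 members (48.5% of all genes above 0), with a median of 0.10. No member passed by edgeR (0% of all genes) or DESeq2, and 1 had an unadjusted p below 0.05, against 2.09% of all genes. That member was Rps19bp1 (0.31, SE 0.15, unadjusted p = 0.040 by edgeR), followed by Rps27rt (1.15) and Rps29 (0.25). The count of 32 against 9 raised members is thus not accompanied by a difference in response that passed the test for any member. Without S1 and S23 the median difference was -0.01. These 3 comparisons share their libraries with the PA responses and with one another.

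By the median over the members, the difference between batches was larger than those between groups, although single members differed by more elsewhere (Rps27rt by 1.15 between the PA responses, which did not pass). Batch 2 had lower levels for 74 of 85 members (87.1%, against 25.4% of all genes) and a higher one for 1 (26.1% of all genes were raised), with a median of -0.37. Below 0 lay 82 of the 85, while 50.5% of all genes lay above it. Of the core genes 70 of 76 fell, 28 of 30 in the small and 42 of 46 in the large subunit. Rpl22 had median levels of 119 CPM in batch 1 and 84.8 in batch 2, and differed by -0.46 (SE 0.055, adjusted p = 1.41e-07 by edgeR's quasi-likelihood test). Rpl17 and Rpl5 differed by -0.45 and -0.41 (adjusted p = 6.96e-08 and 1.91e-07 by edgeR). The one member raised in batch 2 was Rpl7l1, by 0.10 (SE 0.035, adjusted p = 0.023 by edgeR).

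Between batches 10 members did not pass, among them 6 core genes. Those were Rpl10 (0.05, adjusted p = 0.66 by edgeR, and -0.01 with library totals in place of TMM), Rpl39 (-0.08), Rps29 (-0.12), Rpl38 (-0.12), Rpl41 (-0.16) and Rps21 (-0.16). Rpl36al (0.12), Rpl22l1 (-0.24), Rpl9-ps6 and Rps18-ps5 made up the rest. For Rpl10 and Rpl9-ps6 the values depend on how reads were divided between parent and copy. In BSA alone, the 6 batch 2 libraries lay below the 6 batch 1 libraries for 59 of the 85 members and for 10.3% of all genes, and above for 0 members and 11.5% of all genes. Over all 12 against 12 libraries, no member was free of overlap (3.64% of all genes were lower and 3.23% higher without overlap).

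The PA response averaged over both ASOs was higher in batch 2 than in batch 1 for 84 of 85 members, while 45.9% of all genes lay above 0. The median difference was 0.15. No member passed by edgeR's quasi-likelihood test, against 0.0314% of all genes raised and 0.0251% lowered, and 4 had an unadjusted p below 0.05 (6.18% of all genes). DESeq2 called 0 members. The smallest p belonged to Rps15a (0.27, SE 0.11, unadjusted p = 0.020, adjusted p = 0.66 by edgeR), followed by Rps19bp1 (0.28) and Rpl22l1 (0.44).

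**Figure D5:**
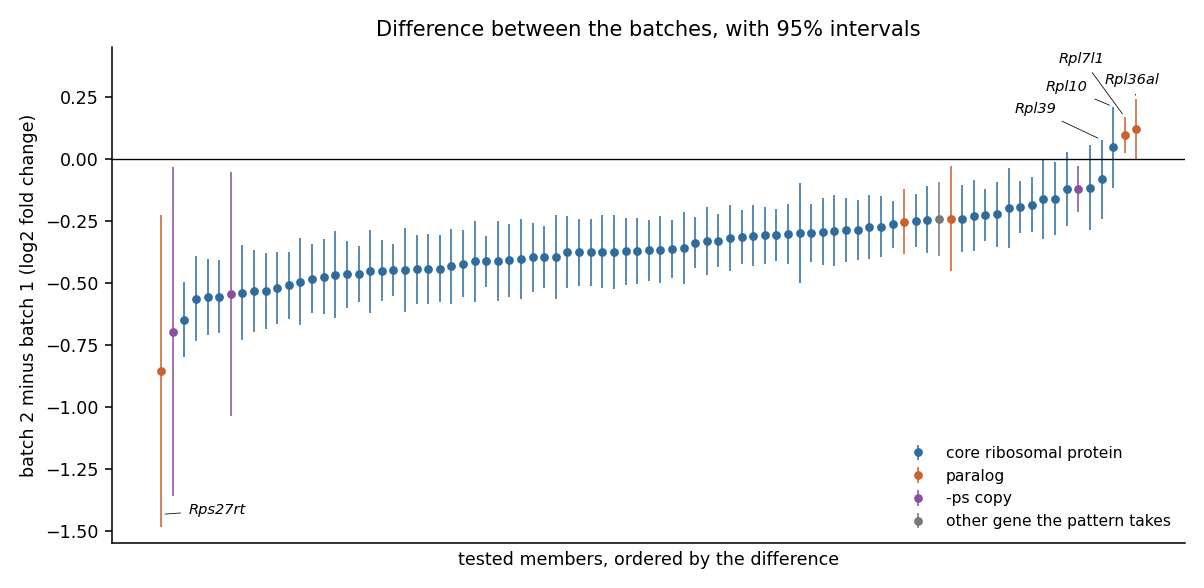
Log2 difference of batch 2 against batch 1 for the tested members with 95% intervals, ordered by size. Most lie below 0, with a median of -0.37, while Rpl7l1 (0.10), Rpl36al (0.12) and Rpl10 (0.05, a value that turns negative with library totals) lie above it. The place of Rpl10 is uncertain, because it shares its coding sequence with Rpl10-ps3.

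Other cell types moved with the batch and with PA, and their part in the members' results was not tested. All 10 acinar marker genes fell in batch 2 (median -4.40), where their summed level was 230 to 619 CPM against 3168 to 23763 in batch 1, and all 10 beta cell markers rose (median 0.54), with 110426 to 152138 CPM against 84084 to 134035. In batch 2, 5 of 6 dividing-cell markers rose, 6 of 8 alpha, delta and PP cell markers fell and 1 rose, 5 of 7 ductal markers fell and 1 rose, and 4 of 8 endothelial markers fell. With PA, 7 of 10 acinar markers fell in both ASO groups, as did 3 of 7 ductal markers, 6 and 4 of 7 tested fibroblast markers, and 7 and 1 of 9 macrophage markers in Ctr and αGlu cells. Of the 10 beta cell markers 3 rose and 3 fell with PA in Ctr cells, and 3 rose and 2 fell in αGlu cells. Alpha, delta and PP cell markers fell for 3 of 8 and 1 of 8, and no endothelial, Schwann cell or dividing-cell marker passed with PA. Between batches, 1 of 9 macrophage and 2 of 8 Schwann cell markers rose in batch 2, and no fibroblast marker passed. No marker was at 0 in a whole group, and none of the marker lists had a gene called between ASOs, where 0% of all genes passed. For the other counts, 26.1% of all genes rose and 25.4% fell in batch 2. With PA, 15.5% of all genes rose and 14.5% fell in Ctr cells, and 14.4% rose and 14.2% fell in αGlu cells.

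The members moved together across libraries. The log2 CPM of a core gene correlated with the mean of the other tested members with a median Pearson's r of 0.96 over 24 libraries, and 71 of 76 lay above 0.8. With group and batch means removed the median was 0.91, and 66 lay above 0.8. These points share their library and its scaling, so that the values are a description. Over all 24 libraries, the 3 members least like the others were Rpl7l1 (-0.22), Rpl10 (-0.08) and Rpl9-ps6 (0.33). With group and batch means removed they were at 0.51, 0.06 and 0.20. Others, such as Rpl22l1 (0.10), Rps27 (0.29) and Rps27rt (0.30), were then lower than Rpl7l1. Within batches, Rpl10 was at 0.65 in batch 1 and -0.51 in batch 2. The values of Rpl10 and Rpl9-ps6 also depend on how reads were divided between parent and copy, which is not known.

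Genes around the ribosome were counted in lists for comparison. Among ribosomal proteins outside the symbol pattern, Rack1, a scaffold on the small subunit, rose with PA in αGlu cells (0.25, adjusted p = 0.023 by edgeR) and did not pass in Ctr cells (0.19, adjusted p = 0.085). Rpsa differed by 0.13 and 0.17 in Ctr and αGlu cells and Fau by 0.04 and 0.21, none of which passed. In batch 2 all of these fell, with Rack1 at -0.43, Rpsa at -0.43 and Fau at -0.44. Of 25 tested other transcripts known for a TOP tract, 9 rose and 1 fell with PA in Ctr cells, and 11 rose and 1 fell in αGlu cells. The initiation factor Eif4b rose by 0.26 and 0.25, the poly(A) binding protein Pabpc1 by 0.22 and 0.22, and the elongation factor Eef2 by 0.23 and 0.27, whereas Vim, an intermediate filament gene of mesenchymal cells, fell by 1.16 and 1.97 on the log2 scale. In batch 2, 18 of the 25 fell and 1, Eif4a2, rose (0.26).

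Of 32 translation initiation factors, 6 rose and none fell with PA in Ctr cells, and 8 rose and 1 fell in αGlu cells. Eif5, which triggers GTP hydrolysis at the start codon, rose by 0.36 and 0.21, and Eif4e, which binds the cap, by 0.32 and 0.17. Among 85 ribosome biogenesis factors, 12 rose and 4 fell in Ctr cells, and 13 rose and 6 fell in αGlu cells. Wdr12, needed for large-subunit assembly, rose by 0.34 and 0.27, and Pno1, a small-subunit assembly factor, by 0.32 and 0.32, while Ubtf, a transcription factor of RNA polymerase I, fell (-0.29 and -0.22). In batch 2, 38 of the 85 biogenesis factors fell and 5 rose. Of 14 chaperones and importins of ribosomal proteins, 2 rose and 0 fell in Ctr cells, and 1 rose and 1 fell in αGlu cells. Bccip, which escorts Rpl23, rose by 0.34 and 0.25.

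Growth signalling genes went both ways: 4 of 29 rose and 7 fell with PA in Ctr cells, and 5 rose and 5 fell in αGlu cells. Mtor, the kinase that controls TOP mRNA translation, fell (-0.42 and -0.43), and so did Mycn (-0.93 and -0.92). Of 20 genes of ribosome quality control, 3 rose and 4 fell in Ctr cells, and 3 rose and 5 fell in αGlu cells, with the ubiquitin ligase Rnf14 at 0.32 and 0.23 and the ribotoxic stress kinase Map3k20 at -0.39 and -0.40. In batch 2, 10 initiation factors fell and 2 rose, 2 chaperones and importins fell and 5 rose, 12 growth signalling genes fell and 9 rose, and 7 quality control genes fell and 6 rose. None of these lists had a gene called between αGlu and Ctr cells by edgeR, where 0% of all genes passed. The lists were written by hand and tested with no set test. Their counts with PA stand beside the 15.5% and 14.4% of all genes raised and the 14.5% and 14.2% lowered in Ctr and αGlu cells. Their counts between batches stand beside the 26.1% of all genes raised and the 25.4% lowered in batch 2.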

How the data were processed

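RNA was measured in 24 libraries of dispersed mouse islet cells, prepared as stranded mRNA libraries from total RNA. The authors mapped reads and counted them in the QIAGEN RNA-seq Analysis Portal 5.1 on GRCm38, per the submitters' processing notes; what aligner settings, annotation, strand setting and handling of reads with several places were used is not stated in the labels or methods. The deposited table holds exon counts per gene, which were used for all tests. It also holds the authors' TPM, used for levels between genes, and the authors' RPKM, used to check the order of levels. Its CPM columns were not used, and CPM here were computed from the counts with TMM factors. Empty cells were read as 0.

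Genes passing filterByExpr (minimum count 10; 15916 genes) were fitted in edgeR 4.0.16 (R 4.3.3) with group and batch terms over all 24 libraries, and tested with the quasi-likelihood F-test; p-values were Benjamini-Hochberg adjusted over all genes, and a member was called at an adjusted p below 0.05. The PA response between batches came from a fit with 1 term for each group in each batch. Correlations and 75-base overlaps used log2 CPM (prior count 2) and GENCODE M21 transcripts; promoters came from RefSeq.

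The members and gene lists were chosen with earlier results of these data known. Members were named by rule: the 6 of smallest p per direction in each PA response, 3 per ASO, difference and PA-by-batch comparison, 4 per direction between batches, from each list the 4 of smallest p, all paralogs and copies with their parents, the 5 highest and 5 lowest levels, the 3 that correlated least, and Rplp0, Rplp1, Rplp2, Rps6, Rpl10, Rps4x, Rpl22 and Rps27a. Others were named after their values were seen: those shown for their sequences, Rps2, Rps23 and Rps28, the members not called between batches, Eef2 and Eif4a2. Some genes that this rule names are not reported here. P-values measure the spread between these libraries; the study describes its replicates as independent experiments, while the labels do not tie libraries to mice. The fit was tested on simulated data. Alternatives were DESeq2 1.42.0, other scalings and filters, other sets of libraries and thresholds, and each library left out.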

Additional observations from a re-analysis of the deposited data

Results flagged for a closer look

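In 152 sets of 6 libraries (38 members in 4 groups), 5 had a highest or lowest library whose gap to its neighbour exceeded 0.625 of the whole range, Dixon's 95% critical value. About 5% would be flagged by chance if the libraries of a set did not differ by batch. Each set mixed the batches, between which most members differed, so that rate cannot be applied here. The members also moved together across libraries, so the sets were not separate observations. All 5 flagged sets were in αGlu PA cells, but whether this group differs from the others in this respect was not tested. On the log2 CPM scale, Rpl3 was at 9.14 in library S8, against 8.71 to 8.86 in the other libraries, and Rpl7 at 8.99 in the same library, against 8.63 to 8.75. Library S24 was low for Rpl35a, at 6.88 against 7.01 to 7.08, and for Rps27l, at 5.49 against 5.76 to 5.90. Rpl7l1 was low in library S4, at 5.36 against 5.59 to 5.70.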

How the results depend on the processing

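No paired analysis was possible because the replicate numbers in the labels are library numbers that no 2 libraries share, and no label ties libraries of different groups to the same animals. Over 50 results on named members, 1783 alternative values were computed, of which 1666 kept their direction and side of the threshold, 89 lost the call, 20 gained one and 8 reversed. In no alternative of a PA response did a member fall. For the PA response in Ctr cells, where 9 members rose, 1 rose with no batch term, 5 with only the groups compared, 0 in batch 1 alone, 3 at an adjusted p below 0.01, 0 under a log2 fold change above 1, and 53 without S1 and S23. For αGlu cells, where 32 rose, these counts were 2, 64, 0, 7, 0 and 57, with 15 in batch 2 alone and 11 with a length trend removed from each library (6 in Ctr cells). Leaving out each library in turn gave 3 to 31 in Ctr and 13 to 52 in αGlu cells. DESeq2 called 9 and 35. The share of all genes raised was 15.5% in Ctr and 14.4% in αGlu cells with all libraries, and it also changed between fits. A change in these counts is therefore not by itself a result about the members. Between batches 1 member was raised: 0 were with library totals, no filter, an adjusted p below 0.01 or a log2 fold change above 1, and 2 without S1 and S23 (1 to 2 with each library left out), while 74 were lowered (72 to 77 with each library left out, and 0 under a log2 fold change above 1). The summed level in PA over BSA stayed between 1.06 and 1.24 in Ctr and 1.11 and 1.22 in αGlu cells, and batch 2 over batch 1 between 0.754 and 0.794. The reversed values were those of Rpl35 and Rpl35a between ASOs in BSA in batch 2 alone (0.00634 and 0.0722), Rpl8 between ASOs in PA in batch 1 alone (-0.0520), Rpl10 between batches with library totals (-0.00773) and without S1 and S23 (-0.00761), Rplp1 with PA in Ctr cells in batch 1 alone (-0.0141), and Rpl10 with PA in αGlu cells in batch 2 alone (0.0210) and without the αGlu PA library S4 (0.0183, in a range of -0.104 to 0.0183). The cause of these changes was not tested. At this depth and number of libraries, the median SE of a member's PA response was 0.094 on the log2 scale in either group of cells, so that changes of the size seen lie near the limit of the test.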
